A study of Mus musculus with 4 samples.

Results

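Nuclei of CA1 pyramidal neurons, the excitatory output neurons of the hippocampus, were selected on the measured levels of their transcripts from single hippocampal nuclei of Fasn-R1812W and wild-type (WT) mice. A nucleus was taken when at least 2 of 5 CA1 genes (Wfs1, Fibcd1, Spink8, Mpped1 and Pou3f1) were on, with fewer than 3 of 9 dentate granule neuron genes and fewer than 2 of 3 GABAergic genes on. A gene counted as on in a well with 10 or more reads and 50 or more reads per 1000000 of the well (CPM). Of 615 NeuN+ wells with at least 1000 genes read and 50000 reads, 133 met the rule. They were 73 of 301 Fasn-R1812W wells and 60 of 314 WT wells. All 4 libraries of the study, which also sorted EdU+ nuclei, held 1130 such wells among 1536. Because the 5 genes chose the nuclei, their levels are a description and support nothing by themselves.

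The study asked how a substitution in fatty acid synthase (Fasn), the enzyme that builds palmitate, bears on hippocampal cells. The NeuN+ library of interest came from Fasn-R1812W mice and its counterpart from WT mice, both aged 8.5 months, and NeuN is a protein of neuronal nuclei. The EdU+ libraries of both genotypes came from mice of that age given the thymidine analogue EdU at 100 mg per kg over 3 days, and they enter here only as a check of the rule. The sources used here do not give how many mice made up a library, their sex, or whether 1 or both copies of the gene carried the allele. There was 1 library of 384 wells per genotype and gate, so each genotype contrast sets 1 library against another and no test was possible. The intervals given are those of counting alone, which PCR copies of a molecule make too narrow, and leave out variation between mice and plates. All 384 index pairs that name the wells occur in all 4 libraries, so a shared pair does not mean a shared cell. The sources used here do not say which plate position a pair stands for.

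CA1 pyramidal neurons receive excitatory input from CA3 and from the entorhinal cortex and send their axons to the subiculum and cortex. Glutamate opens AMPA and NMDA receptors on their dendritic spines, and their synapses are the classical preparation for long-term potentiation. Palmitate made by Fasn goes into membrane lipids, and palmitate in general is attached to many synaptic proteins by ZDHHC enzymes.

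The nuclei were of like depth in both libraries. The median CA1 nucleus held 203868 reads (57571 to 760182) in Fasn-R1812W and 199872 reads (51285 to 426109) in WT, and 4683 and 4744 genes were read in the median nucleus. Pooled over nuclei, the totals were 16890651 reads in Fasn-R1812W and 12330099 reads in WT. Mitochondrially encoded transcripts took 0.105% and 0.124% of them. No doublet caller was run.

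The genes of the rule were on in different combinations from nucleus to nucleus. Spink8, a serine protease inhibitor of the Kazal type, was on in 52 of 73 Fasn-R1812W and 32 of 60 WT nuclei. Wfs1, the wolframin protein of the endoplasmic reticulum, was on in 39 of 73 and 25 of 60. Fibcd1, an acetyl-group-binding membrane receptor, was on in 41 of 73 and 33 of 60. Mpped1, a metallophosphoesterase, was on in 39 of 73 and 43 of 60. Pou3f1, a POU-domain transcription factor, was on in 21 of 73 and 20 of 60. Only 2 Fasn-R1812W nuclei and 1 WT nucleus had all 5 genes on. With 4 on there were 8 and 7 nuclei, with 3 on 24 and 16, and with the minimum of 2 on 39 and 36. Just outside the rule lay 57 Fasn-R1812W and 56 WT wells with 1 CA1 gene on, and in 23 and 31 of these that gene was Mpped1. A further 2 Fasn-R1812W and 5 WT wells had enough CA1 genes on but were left out for granule or GABAergic genes.

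Per nucleus, each rule gene ran from no read to at least 369 CPM in its highest nucleus. Wfs1 had a median of 83.7 CPM and a highest value of 1792 CPM among Fasn-R1812W nuclei, against 4.20 and 1320 CPM among WT nuclei. Spink8 had a median of 205 CPM (highest 1711) among Fasn-R1812W nuclei and 119 CPM (highest 1345) among WT nuclei. Mpped1 ran the other way, with a median of 76.8 CPM (highest 1270.5) among Fasn-R1812W nuclei and 144 CPM (highest 934) among WT nuclei. Every rule gene was at 0 in some nuclei of both libraries, and the ranges overlapped throughout. Scaled by exon length, Spink8 was the most abundant of the 5, at 362 CPM per kilobase (RPKM) in Fasn-R1812W and 273 RPKM in WT, and Pou3f1 the least, at 19.0 and 17.8 RPKM.

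**Figure D1:**
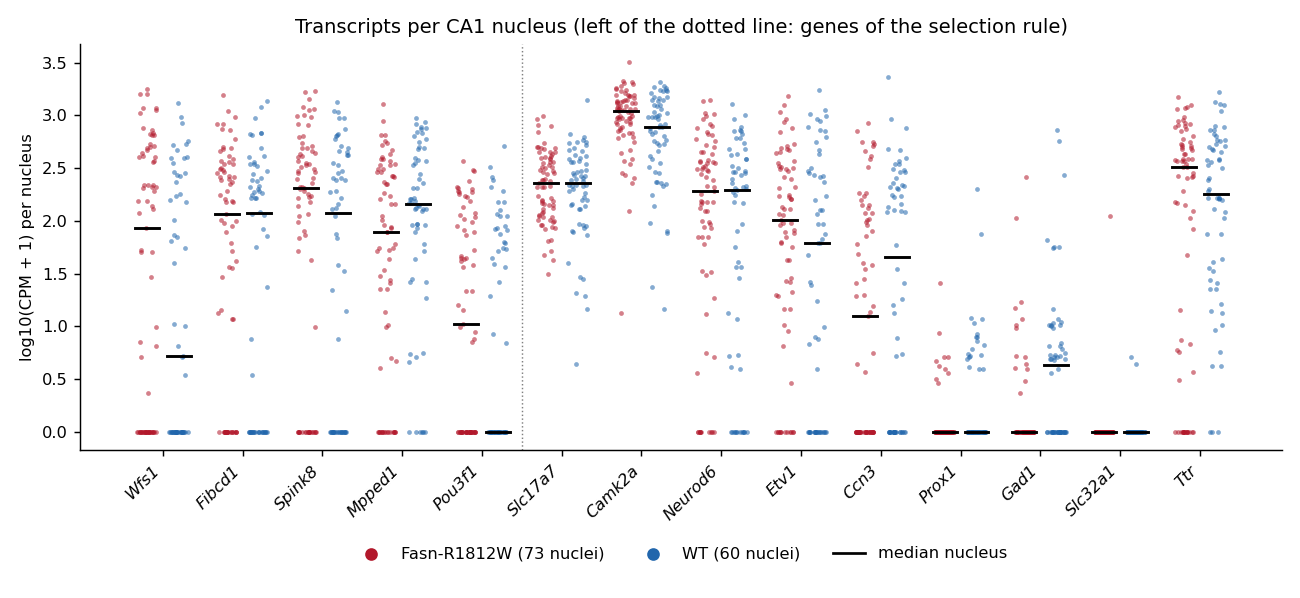
Transcript level per CA1 nucleus as log10(CPM + 1), with 1 point per nucleus, Fasn-R1812W left of WT for each gene and a bar at the median nucleus. The 5 genes left of the dotted line chose the nuclei; Slc17a7 and Camk2a were read in every nucleus, while Prox1 and Slc32a1 had a median of 0 in both libraries.

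The label was checked on genes the rule did not use. Slc17a7, the vesicular glutamate transporter VGLUT1, was on in 67 of 73 Fasn-R1812W and 51 of 60 WT nuclei. Camk2a, a kinase of the postsynaptic density of excitatory neurons, was on in 72 of 73 and 58 of 60. Pex5l, which binds HCN channel subunits, was on in 70 of 73 and 46 of 60, and Ociad2 in 54 of 73 and 36 of 60. Slc17a7 stood 4.92 and 4.24 above GABAergic nuclei on the log2 scale but -0.10 and 0.38 from granule nuclei, so it separates excitatory from GABAergic nuclei only. Camk2a, at 0.10 and -0.53 from granule nuclei, does not set CA1 nuclei apart from them either. Pex5l stood 2.89 and 2.98 and Ociad2 3.17 and 2.32 above granule nuclei. These 2 are not typical of the 22 pyramidal neuron genes listed, several of which stood below granule nuclei in both libraries, such as Zbtb20 at -0.42 and -0.63. Slc32a1, the vesicular GABA transporter, on in 0 nuclei of either library, and Prox1, a granule neuron factor, on in 0 of 73 and 1 of 60, are limited by the rule and check nothing. The label did not hold for every nucleus: 1 WT nucleus had 3.36 CPM of Slc17a7, 13.4 CPM of Camk2a and 572 CPM of Gad1, the GABA-producing enzyme. Genes that also mark neighbouring excitatory fields were not absent. Etv1, listed for the subiculum and entorhinal cortex and also found in deep CA1, was on in 43 of 73 and 27 of 60, and Pcp4, listed for CA2, in 22 of 73 and 21 of 60. At least 3 of 10 CA3 genes were on in 2 Fasn-R1812W and 0 WT nuclei, and at least 3 of 7 CA2 genes in 2 and 4. At least 3 of 11 subicular or entorhinal genes were on in 13 of 73 and 10 of 60 nuclei, and at least 3 of 15 interneuron genes, a list that holds Cck, in 24 and 24.

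Transcripts of other cells were read in these nuclei too. Ttr, transthyretin of the choroid plexus, was on in 46 of 73 Fasn-R1812W and 38 of 60 WT nuclei, or 63.0% and 63.3%, with pooled levels of 352 and 344 CPM, above those of each rule gene. Granule nuclei of the same libraries, which should lack it too, had Ttr on in 39.7% and 62.6%. Summed over their lists, astrocyte genes stood at 272 CPM in Fasn-R1812W and 282 CPM in WT nuclei, with Clu at 103 and 124 CPM. Mature oligodendrocyte genes stood at 128 and 246 CPM, oligodendrocyte precursor genes at 21.6 and 36.1 CPM and microglial genes at 90.6 and 121 CPM. The 7 endothelial genes summed to 7.47 CPM in Fasn-R1812W, where 5 had no read, and to 0 in WT, where all 7 had none. At least 3 genes of a list were on in 1 and 3 nuclei for astrocytes, 0 and 1 for mature oligodendrocytes and 1 and 0 for microglia. Reads of Gad1 and Prox1 were found in a larger share of WT nuclei. Gad1 had no read in 59 of 73 Fasn-R1812W and 28 of 60 WT nuclei, and Prox1 had none in 63 and 41. The part of these transcripts in any result below was not tested.

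CA1 nuclei were 24.3% of the kept NeuN+ wells in Fasn-R1812W (exact Clopper-Pearson 95% interval 19.5 to 29.5) and 19.1% in WT (14.9 to 23.9). The difference was 5.14 percentage points with a Newcombe interval of -1.37 to 11.6, which holds 0. The wells fall into 4 blocks by low or high number of either index. In 3 blocks the share was higher in Fasn-R1812W, at 22.2%, 30.3% and 26.9%, against 18.8%, 16.8% and 13.6% in WT. The interval of the difference left out 0 in the block of 30.3% and 16.8% (1.23 to 25.4 points). In the block with high numbers of both indices the share was 17.6% in Fasn-R1812W and 25.8% in WT, a difference of -8.26 points (-20.1 to 3.82). With a stricter filter on genes and reads per well the difference was 7.51 points (0.0626 to 15.1). It held 0 in the other 8 alternatives for the whole library. A share is of NeuN+ nuclei only, so it moves with the numbers of all other neurons: by their own rules granule nuclei numbered 78 in Fasn-R1812W and 123 in WT, and GABAergic nuclei 36 and 35.

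**Figure D2:**
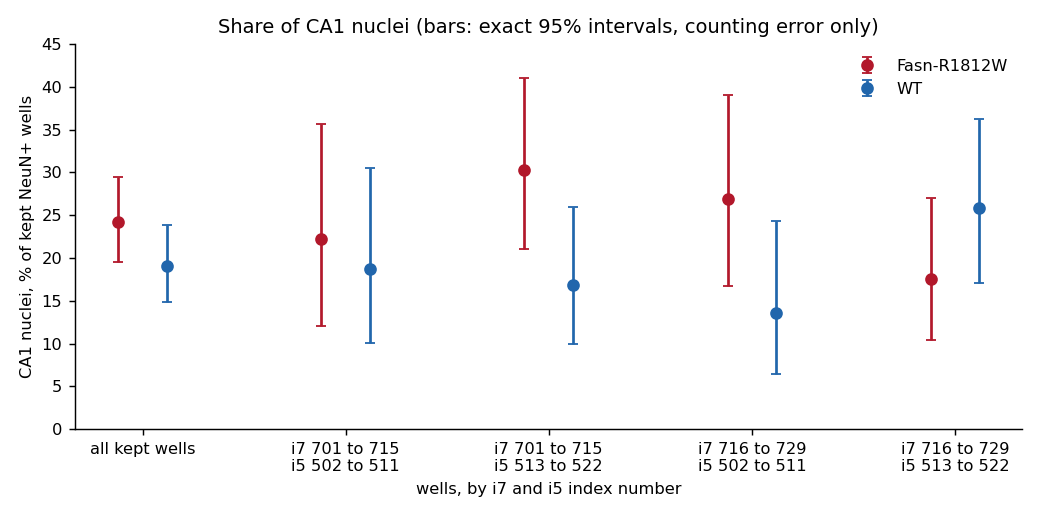
Share of CA1 nuclei in percent of kept NeuN+ wells, for all wells and for each of 4 blocks of wells by index number. Fasn-R1812W is drawn left of WT, with exact 95% intervals as bars. The intervals of the genotypes overlap in every block, and the last block runs the other way (17.6% in Fasn-R1812W, 25.8% in WT).

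Within each library the CA1 nuclei were set against granule nuclei and GABAergic nuclei. Granule nuclei had at least 3 of the 9 granule genes on and GABAergic nuclei at least 2 of Gad1, Gad2 and Slc32a1. Genes of the rule were left out of the count below. The groups were formed from these same counts, so the ratios describe the nuclei and are no test. Not every rule gene set the classes apart. Mpped1 stood at 193 CPM in GABAergic and 184 CPM in CA1 nuclei of Fasn-R1812W, and at 51.7 and 267 CPM in those of WT. Wfs1 stood at 14.2 and 274 CPM in Fasn-R1812W and at 51.0 and 125 CPM in WT. Of 2672 genes on in at least 30% of the CA1 nuclei of each library, 14 (0.524%) stood at least 4-fold above both other classes in both libraries. Of these, the 12 with the largest smallest ratio are described. Kept wells in none of these classes were not compared, so whether the genes are also high in other excitatory neurons was not tested.

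Sv2b, a glycoprotein of synaptic vesicles, led them. It was on in 61 of 73 Fasn-R1812W and 48 of 60 WT CA1 nuclei, with 577 and 468 CPM. In granule nuclei it stood at 17.1 and 3.15 CPM and in GABAergic nuclei at 17.9 and 19.6 CPM. Dkk3, a secreted protein of the dickkopf family, had 552 CPM in Fasn-R1812W and 514 CPM in WT CA1 nuclei, against 22.3 and 20.8 CPM in granule nuclei and 14.2 and 26.8 CPM in GABAergic nuclei. Ccn3, a secreted matricellular protein, had 111 and 183 CPM in CA1 nuclei, against 6.21 and 0.407 CPM in granule nuclei. It was on in fewer CA1 nuclei than the first pair, 25 of 73 and 29 of 60.

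Several of the others act on small GTPases, calcium or receptor signalling. Rasgrp1, an exchange factor that activates Ras, was on in 64 of 73 and 52 of 60 CA1 nuclei, with log2 ratios over granule nuclei of 3.97 and 2.45. Rasal1, a Ras GTPase-activating protein, had 2.15 and 3.26 over granule nuclei. Pde1a, a cyclic nucleotide phosphodiesterase driven by calcium and calmodulin, had 2.31 and 4.00. Tyro3, a receptor tyrosine kinase of the TAM family, had 3.07 and 3.87, and Gpr161, a receptor of the primary cilium that restrains hedgehog signalling, 6.32 and 6.95. Ccdc88c, which modulates Wnt and G-protein signals, had 4.20 and 3.68, and Cd34, a sialomucin known from blood progenitors and endothelium, 2.27 and 2.70. Cd34 was on in 31 of 73 and 18 of 60 CA1 nuclei, in which the endothelial list was at or near 0. Sinhcaf, a subunit of the SIN3 deacetylase complex, had 3.85 and 4.11. Neurod6, a transcription factor of pyramidal neurons, had 2.09 and 3.42 over granule nuclei and 4.24 and 3.92 over GABAergic nuclei. Transcripts on the opposite strand overlap Sv2b, Ccdc88c, Sinhcaf and Cd34 in the annotation, and without strand their reads cannot be told apart. Between genotypes none of the 12 was 2-fold apart in CA1 nuclei; the ratios ran from -0.73 for Pde1a to 0.96 for Tyro3.

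**Figure D3:**
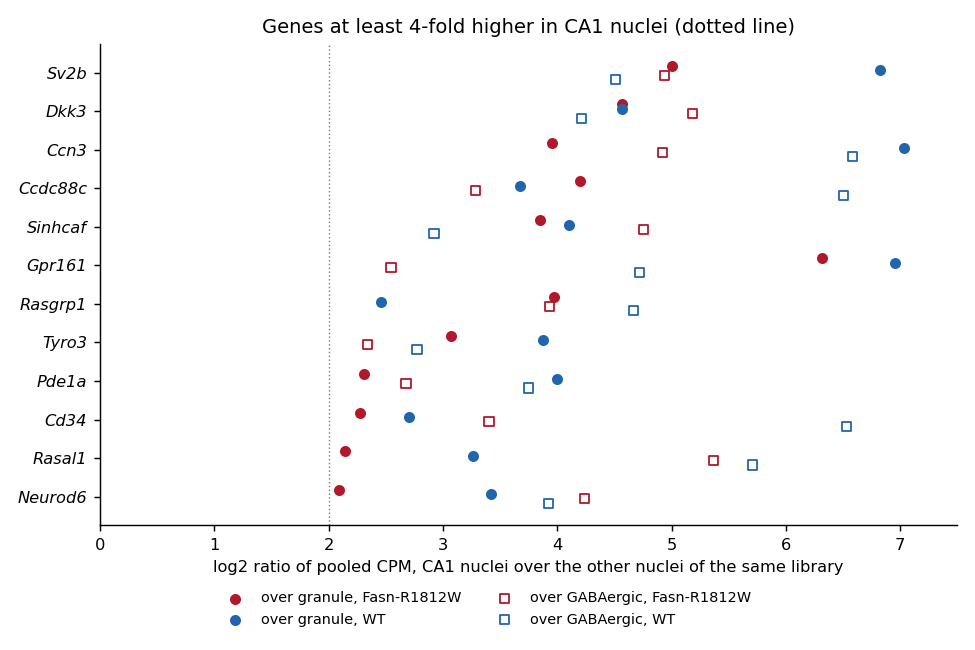
Log2 ratio of pooled CPM in CA1 nuclei over granule nuclei (filled circles) and over GABAergic nuclei (open squares) of the same library, for 12 genes, in Fasn-R1812W (red) and WT (blue). Every point lies right of the dotted line at 4-fold, as the choice of genes requires; Sv2b and Dkk3 have all ratios above 4.

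CA1 nuclei also varied among themselves. Pyramidal genes were on in nuclei with Wfs1 on and in nuclei without it, in WT more often in the first. Neurod6 was on in 28 of 39 Fasn-R1812W and 17 of 25 WT nuclei with Wfs1 on, and in 24 of 34 and 20 of 35 nuclei with it off. Zbtb20, a transcription factor of hippocampal identity, was on in 33 of 39 and 23 of 25 nuclei with Wfs1 on, against 29 of 34 and 26 of 35 with it off. Calb1, the calcium buffer calbindin of superficial CA1, was on in 15 of 39 and 10 of 25 nuclei with Wfs1 on, against 9 of 34 and 5 of 35 with it off. Nr2f2, a nuclear receptor of the ventral hippocampus, went the other way, with 5 of 39 and 3 of 25 against 9 of 34 and 8 of 35. These counts of nuclei for Calb1 and Nr2f2 ran the same way in each library, and nuclei of 1 library are not replicates. By pooled level Calb1 did not, at 95.1 CPM with Wfs1 on and 110 CPM with it off in Fasn-R1812W, against 111 and 69.4 CPM in WT. Among nuclei with 3 or more rule genes on, Zbtb20 was on in 34 of 34 and 24 of 24. Only 3 Fasn-R1812W and 6 WT nuclei entered through Mpped1 and Pou3f1 alone, of which 3 and 5 had Slc17a7 on, 1 and 4 Zbtb20 and 1 and 3 Neurod6. Across single nuclei, 2672 genes were ranked by likeness to Wfs1, and the first 50 of each library had only 1 gene in common. Unrelated lists of that length would share about as many, so no gene is shown to follow Wfs1. The gene was Gca, a calcium-binding protein first found in granulocytes. Spearman correlations of Gca with Wfs1, 0.32 over 73 and 0.29 over 60 nuclei, are weak, and the points of each share a library and differ in depth.

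Genes listed for ventral CA1 numbered 8, and they do not establish the position of a nucleus along the hippocampus. At least 2 of them were on in 24 of 73 Fasn-R1812W and 23 of 60 WT nuclei, and at least 3 in 10 and 6. Of the 8, only Dcn and Ccn3 stood above both granule and GABAergic nuclei in both libraries. Nr2f2 had log2 ratios of -0.42 and -0.55 over GABAergic nuclei. Ccn3 stood at 111 CPM in Fasn-R1812W and 183 CPM in WT, a direction kept in all 15 alternatives. Dcn, the proteoglycan decorin, stood at 99.7 and 150 CPM. It kept that direction in 10 of 15 alternatives, and in nuclei with 3 or more rule genes on it stood at 59.0 and 4.56 CPM. Grp, gastrin-releasing peptide, stood at 33.4 and 25.5 CPM. Htr1a, a serotonin receptor, stood at 19.7 and 46.0 CPM and was on in 8 nuclei of each library. Gpc3, a glypican, had 0.0593 CPM (exact Poisson 95% interval 0.0015 to 0.33), a single read, in Fasn-R1812W and 15.4 CPM (13.3 to 17.8) in WT, where it was on in 2 nuclei. The median log2 ratio of the list was -0.43, and it turned positive in 5 of 15 alternatives, such as 0.26 with every nucleus weighted alike. Of the genes of superficial and deep CA1, Calb1 stood at 102 and 84.9 CPM and Ndst4, a heparan sulfate sulfotransferase, at 165 and 94.8 CPM.

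Between genotypes, 10717 nuclear-encoded genes had at least 10 CPM and a read in at least 10% of CA1 nuclei in either library. The log2 ratio of pooled CPM, Fasn-R1812W over WT after adding 1 CPM, had a median of 0.0040 and quartiles of -0.49 and 0.50. At least 2-fold higher in Fasn-R1812W were 1200 genes (11.2%) and at least 2-fold lower 1204 genes (11.2%). This is the background against which every count below is set. Counts of 2-fold genes in a list cover only members that passed the same limits of CPM and nuclei, called the gene filter. The ratio was higher for transcripts of higher GC content in all 3 classes of nuclei. In 5 equal bins from the lowest to the highest transcript GC content, the median log2 ratio was -0.23, -0.09, -0.02, 0.13 and 0.23 in CA1 nuclei. It was -0.19 and 0.26 at the ends in granule nuclei and -0.31 and 0.19 in GABAergic nuclei. Across the 10704 genes with a known transcript the Spearman correlation of ratio with GC content was 0.21 in CA1 nuclei, a description, since genes are not replicates.

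The genes named here are the furthest apart among those within limits applied only in the library where the gene was higher. There the gene had to be on in at least 20% of nuclei, with at most 20% of reads in any 1 nucleus. In the other library 1 nucleus could hold more, such as 47.8% of Flad1 reads in WT or 41.0% of Fam149b reads in Fasn-R1812W. Larger ratios occur among genes outside these limits. Most were on in a minority of nuclei. Flad1, which makes the flavin cofactor FAD, stood at 67.4 CPM (63.6 to 71.5) in Fasn-R1812W and 5.44 CPM (4.22 to 6.91) in WT. It was on in 20 of 73 and 2 of 60 nuclei, and its log2 ratio was 3.41, the largest of those named. Tnfrsf25, a death-domain receptor, stood at 109 and 11.1 CPM and was on in 21 of 73 and 4 of 60 nuclei. Ephb6, an ephrin receptor without kinase activity, stood at 130 and 23.6 CPM and was on in 26 and 5. Poglut1, which adds glucose to Notch, stood at 234 and 51.6 CPM and was on in 30 and 12. The others were Myg1 with a log2 ratio of 2.35, the polycomb subunit Pcgf1 with 2.23, the sulfotransferase Chst8 with 2.15, the pseudouridine synthase Trub1 with 2.13, Tbpl1 with 2.09, the nuclease subunit Mus81 with 2.09, the ETS factor Elk1 with 2.05 and glutaryl-CoA dehydrogenase Gcdh with 2.03. Coding genes overlap Flad1, Myg1, Tbpl1, Mus81, Elk1 and Gcdh in the annotation, so reads of these could be shared.

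In the other direction Ggcx, the vitamin K-dependent carboxylase, stood at 7.17 CPM (5.95 to 8.57) in Fasn-R1812W and 51.4 CPM (47.5 to 55.6) in WT, a log2 ratio of -2.68. It was on in 5 of 73 and 12 of 60 nuclei. Fam149b stood at 13.9 and 82.4 CPM and was on in 4 and 18 nuclei, and Sae1, a subunit of the SUMO-activating enzyme, at 20.8 and 107 CPM and on in 9 and 13. Xkr4, an XK-related membrane protein, had -2.00, on in 11 and 22 nuclei. Jak2, the cytokine receptor kinase, had -1.90, on in 13 and 22, and Socs5, a suppressor of cytokine signalling, had -1.83, on in 9 and 17. The rest included Gtf2a2 of the basal transcription machinery with -1.95, N4bp2l1 with -1.95 and the mitochondrial ribosomal protein Mrpl13 with -1.93. Last came the cytochrome b5 reductase Cyb5r4 with -1.88, the POU factor Pou2f1 with -1.85 and the sialomucin Cd164 with -1.80. Coding genes on the opposite strand overlap Mrpl13 and Pou2f1 in the annotation, so reads could be shared. The same holds for Xkr4, Fam149b and N4bp2l1, which noncoding transcripts overlap. In 11 of the 24 genes named in both directions all 4 blocks of wells ran the same way as the whole, and in the other 13 it was 3 of 4. The blocks are parts of the same reads by which the genes were chosen, so their agreement is largely fixed by that choice. The share over all genes tested is not given here. Of the 24, 23 kept their direction in all 15 alternatives; Cd164 had 0.16 in nuclei with 3 or more rule genes on. The naming rule asked for the same direction in several of these measures, and every alternative used the same 2 libraries.

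Among excitatory receptor genes, Gria1 and Gria2 were near even and Gria3 was higher. Of 16 AMPA and kainate receptor genes and partners that passed the gene filter, 0 were 2-fold higher in Fasn-R1812W and 2 were 2-fold lower. Their median log2 ratio was 0.065. Gria2, the subunit that makes AMPA receptors impermeable to calcium, was read in every nucleus. It ran from 1057 to 8282 CPM (median 4214) among Fasn-R1812W nuclei and from 560 to 7133 CPM (median 4312) among WT nuclei. Gria1 stood at 1477 and 1350 CPM and Gria3 at 1158 and 759 CPM. Per length, Gria2 at 276 and 269 RPKM and Gria1 at 244 and 223 RPKM stood above Gria3 at 117 and 77.0 RPKM. Gria4 was lower, at 103 and 218 CPM, and so was the kainate subunit Grik3, at 3.56 and 35.9 CPM, with 58.6% of the WT reads in 1 nucleus. Both turned positive in nuclei with 3 or more rule genes on.

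Of 6 NMDA receptor genes 2 were 2-fold higher and 0 lower, with a median of 0.26, which was -0.26 in nuclei with 3 or more rule genes on. Grin2b, the subunit that gives slow currents, ran from 749 to 5219 CPM (median 2238) among Fasn-R1812W and from 342 to 5189 CPM (median 2164) among WT nuclei. Grin2a stood at 1167 and 1120 CPM, and Grin1, the subunit all NMDA receptors need, at 528 and 445 CPM. Grin3a, at 134 and 54.3 CPM, and Grin2d, at 13.7 and 3.90 CPM, were the 2 past 2-fold; Grin3a had -0.77 in nuclei with 3 or more rule genes on. Metabotropic glutamate receptor genes had 0 higher and 2 lower of 6 and a median of -0.62. Grm5, coupled to calcium release in CA1 spines, was read in every nucleus, with a median of 788 CPM (43.9 to 2184) among Fasn-R1812W and 1246 CPM (280 to 3229) among WT nuclei. Its pooled log2 ratio was -0.46, and -0.59 to -0.36 over the alternatives. Grm2 (9.90 and 37.1 CPM) and Grm3 (18.8 and 65.4 CPM), both coupled to inhibition of adenylyl cyclase, were past 2-fold and on in at most 11 nuclei of a library, and Grm3 had 1.83 in nuclei with 3 or more rule genes on.

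GABA-A receptor genes, whose products carry fast inhibition, were lower in Fasn-R1812W CA1 nuclei in 10 of 12 members, while 5389 of all 10717 genes tested had a ratio above 0. The median log2 ratio was -0.34, and 0 were 2-fold higher and 1 lower, a share under the background of 11.2%. Gabra2, an alpha subunit gene, stood at 383 CPM (374 to 393) in Fasn-R1812W and 521 CPM (508 to 534) in WT, and was on in 67 of 73 and 55 of 60 nuclei. Gabrb1, a beta subunit gene, stood at 505 CPM (494 to 516) in Fasn-R1812W and 621 CPM (608 to 635) in WT. The extrasynaptic subunit genes Gabra5, at 140 and 186 CPM, and Gabrd, at 13.6 and 9.83 CPM, ran in opposite directions. The 1 gene past 2-fold, Gabrg1, had 94.2% and 83.9% of its reads in 1 nucleus of each library. The median stayed below 0 in all 15 alternatives, from -0.43 to -0.14. The value of -0.14 was reached after subtracting the median ratio of genes of like GC content: the median transcript of the list had 42.1% GC, against 48.4% over all genes tested. In granule nuclei the list's median was -0.42 over 10 genes and in GABAergic nuclei 0.21 over 12.

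**Figure D4:**
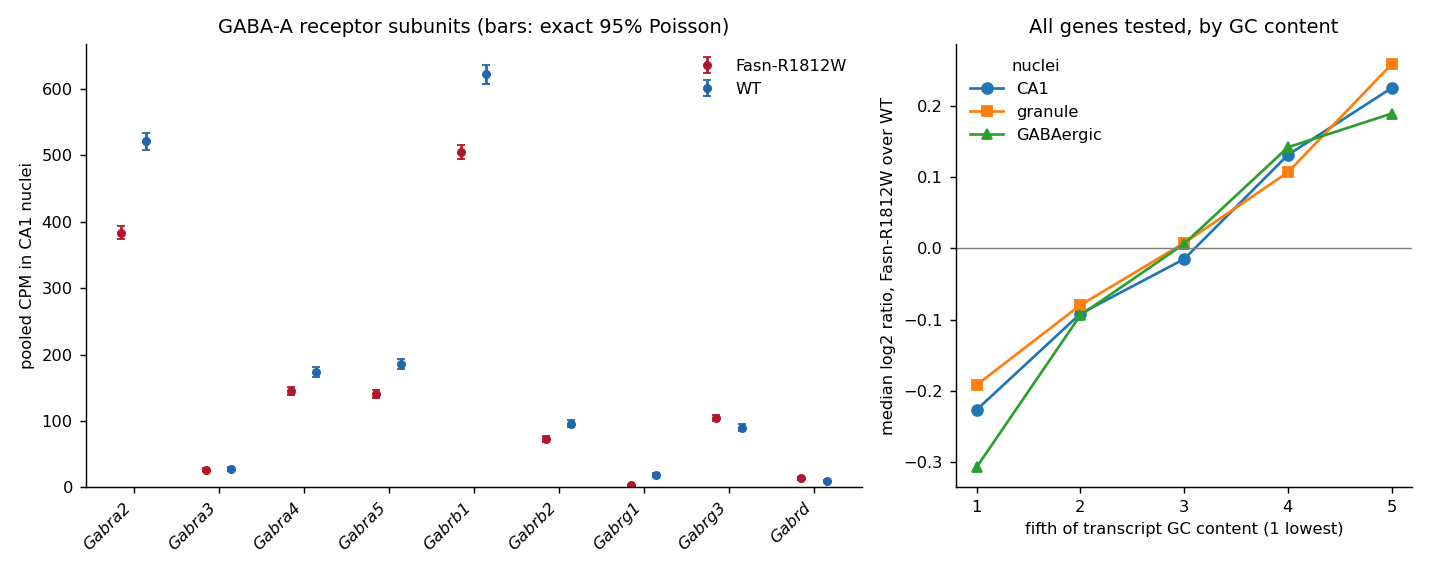
Left, pooled CPM of 9 of the 12 GABA-A receptor subunit genes in CA1 nuclei, Fasn-R1812W left of WT, with exact 95% Poisson intervals of the read count as bars. Right, median log2 ratio of Fasn-R1812W over WT in each of 5 bins of transcript GC content, from -0.23 to 0.23 in CA1 nuclei and with the same order in granule and GABAergic nuclei.

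Scaffold and release genes were balanced. Of 21 postsynaptic density genes 1 was 2-fold higher and 1 lower, with a median of -0.02, and of 21 presynaptic genes 1 was higher and 0 lower, with a median of -0.03. Camk2a ran from 12.4 to 3166 CPM (median 1105) among Fasn-R1812W and from 13.4 to 2056 CPM (median 778) among WT nuclei. Dlgap1, a scaffold protein, stood at 916 and 849 CPM. Shank3, a master scaffold of the postsynaptic density, stood at 29.4 and 9.74 CPM and was on in 8 and 2 nuclei. Camk2d was lower at 68.3 and 144 CPM, but its log2 ratio was 0.72 in nuclei with 3 or more rule genes on. Syt1, the calcium sensor of release, stood at 1551 and 1885 CPM and Snap25, a SNARE protein, at 1583 and 1855 CPM. Cplx1, complexin 1, was the gene past 2-fold, at 118 and 43.9 CPM and on in 20 and 12 nuclei.

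Of 25 potassium channel genes 1 was 2-fold higher and 2 lower, with a median of -0.21. Kcna1, which codes for a channel subunit of axons and is named here after its values were seen, stood at 38.8 CPM (35.8 to 41.8) in Fasn-R1812W and 87.2 CPM (82.1 to 92.6) in WT. It was on in 10 of 73 and 26 of 60 nuclei. All 4 blocks of wells ran the same way, but they are parts of the reads on which the gene was picked. Kcnh1 was higher at 20.3 and 3.33 CPM and Kcnn1 lower at 4.21 and 13.9 CPM. Kcnh7, of the ERG family, stood at 578 and 590 CPM and was the most abundant of the list in WT. Sodium channel genes had 0 of 7 past 2-fold in either direction and a median of 0.22. Scn2a, which initiates spikes in the axon, had a median of 635 CPM (0 to 2825) among Fasn-R1812W and 970 CPM (17.1 to 2421) among WT nuclei, and Scn8a stood at 867 and 743 CPM. Calcium channel genes had 0 of 14 past 2-fold and a median of 0.08; Cacna1e stood at 1104 and 938 CPM and Cacna2d1 at 438 and 448 CPM.

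Immediate early genes, which neurons switch on after activity, had 3 of 15 at least 2-fold higher and 5 lower, with a median of -0.42. Egr1, a zinc finger factor, stood at 91.7 and 134 CPM, and Homer1 at 223 and 225 CPM. Arc, which controls AMPA receptor uptake, stood at 105 and 110 CPM and was on in 21 of 73 and 14 of 60 nuclei. Nptx2, a pentraxin that gathers AMPA receptors, stood at 3.44 and 18.4 CPM, on in 2 and 7 nuclei, and Btg2 at 6.22 and 23.4 CPM. Fos and Jun, at 16.8 and 6.09 CPM and at 12.3 and 5.36 CPM, and Bdnf, the neurotrophin, at 149 and 64.6 CPM, ran the other way. In Fasn-R1812W 1 nucleus held 30.1% of the Bdnf reads. At least 3 of the 20 listed genes were on in 38 of 73 and 33 of 60 nuclei. The median of the list was 0.11 in nuclei with 3 or more rule genes on.

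Fasn itself, with the gene identifier ENSMUSG00000025153, spans positions 120805846 to 120824547 of chromosome 11 (GRCm38, minus strand). It stood at 34.4 CPM (31.7 to 37.4) in Fasn-R1812W and 21.3 CPM (18.8 to 24.0) in WT CA1 nuclei, on in 6 of 73 and 7 of 60. The log2 ratio was 0.67, but 1 nucleus held 33.6% of the reads in Fasn-R1812W, and the ratio was 0.06 with nuclei weighted alike and -0.86 in nuclei with 3 or more rule genes on. A count cannot show the substitution, so these values do not check the genotype. Granule nuclei had 40.8 and 38.0 CPM and GABAergic nuclei 11.7 and 27.1 CPM.

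Of 19 fatty acid synthesis genes 2 were 2-fold higher and 2 lower, near the background, with a median of 0.16. Acaca, which makes the malonyl-CoA that Fasn uses, stood at 89.7 and 57.2 CPM. Tecr, the reductase of chain elongation, stood at 644 and 460 CPM, and Scd2, which desaturates palmitate and stearate, at 337 and 222 CPM. Among the genes past 2-fold were Mcat, of mitochondrial fatty acid synthesis, at 18.8 and 3.90 CPM, and the elongase Elovl1 at 46.3 and 13.8 CPM. Mecr, the reductase of the same mitochondrial pathway, stood at 115 and 57.3 CPM and was on in 33 of 73 and 13 of 60 nuclei, just short of 2-fold at 0.99. Srebf1, the transcription factor of lipogenesis, was lower at 23.2 and 59.0 CPM, on in 4 and 5 nuclei, as was Thrsp at 6.46 and 18.3 CPM. Acaca, Mecr, Srebf1 and Thrsp were named after their values were seen.

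Of 26 genes that attach or remove palmitate 2 were 2-fold higher and 4 lower, with a median of -0.21. Zdhhc17 stood at 178 and 258 CPM and Zdhhc2, which palmitoylates the scaffold PSD-95, at 129 and 161 CPM. Zdhhc7 stood at 46.2 and 14.1 CPM, on in 10 and 3 nuclei. Lypla1, a thioesterase that removes palmitate and a gene named after its values were seen, stood at 13.9 and 35.3 CPM, on in 3 of 73 and 12 of 60. Zdhhc15, at 6.76 and 20.2 CPM, was on in 1 and 2 nuclei only and turned positive under 2 alternatives.

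Of 18 cholesterol synthesis genes 3 were 2-fold higher and 1 lower, with a median of 0.08. Msmo1, a demethylating oxidase late in the pathway, stood at 127 CPM (122 to 133) in Fasn-R1812W and 40.0 CPM (36.5 to 43.6) in WT. Msmo1 was on in 29 of 73 and 8 of 60 nuclei and higher in all 4 blocks of wells, which are parts of the same reads. Its log2 ratio ran from 1.25 to 2.38 over the alternatives. In granule nuclei its log2 ratio was -0.77 and in GABAergic nuclei 1.14. Nsdhl stood at 20.9 and 8.12 CPM, with 83.0% of the WT reads in 1 nucleus. Sc5d was lower at 53.9 and 121 CPM. Srebf2, the transcription factor of the pathway, stood at 80.9 and 148 CPM. Members of 1 pathway thus lay on both sides of even.

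Of 33 phospholipid and sphingolipid synthesis genes 2 were 2-fold higher and 2 lower, with a median of 0.22. Chka, choline kinase, stood at 669 and 512 CPM. Cers5, a ceramide synthase that prefers palmitoyl-CoA, stood at 72.8 and 20.5 CPM, on in 17 and 9 nuclei. Ormdl1, which restrains the first step of sphingolipid synthesis, stood at 5.10 and 29.9 CPM, but 1 nucleus held 68.6% and 75.8% of its reads. Of 11 fatty acid oxidation genes 1 was higher and 2 lower, with a median of -0.31. Acaa1a, the peroxisomal thiolase, stood at 85.3 and 25.7 CPM, and Acadvl, a mitochondrial dehydrogenase, at 23.6 and 64.5 CPM. Cpt1c, the brain carnitine palmitoyltransferase, had a median of 159 CPM (0 to 1336) among Fasn-R1812W and 55.5 CPM (0 to 1255) among WT nuclei.

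Of 19 genes on the glycolysis list, which also holds the pyruvate dehydrogenase gene Pdha1, 0 were 2-fold higher and 1 lower. Their median was 0.09, and it came to -0.09 after subtracting the median of genes of like GC content. Aldoa, aldolase A, had a median of 886 CPM (58.6 to 5145) among Fasn-R1812W and 534 CPM (0 to 2238) among WT nuclei, with a pooled log2 ratio of 0.95. Gapdh stood at 495 and 510 CPM. Pdha1, of the pyruvate dehydrogenase complex, was the lower gene, at 42.0 and 131 CPM. Of 16 genes of endoplasmic reticulum stress 0 were higher and 1, Dnajb9, lower at 12.03 and 29.5 CPM, with a median of 0.07; the chaperones Canx at 326 and 320 CPM and Hsp90b1 at 302 and 261 CPM were near even. Of 9 mitochondrially encoded genes 0 were higher and 1 lower, with a median of -0.31. It was 1.01 without the 5% of wells with the most genes.

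**Figure D5:**
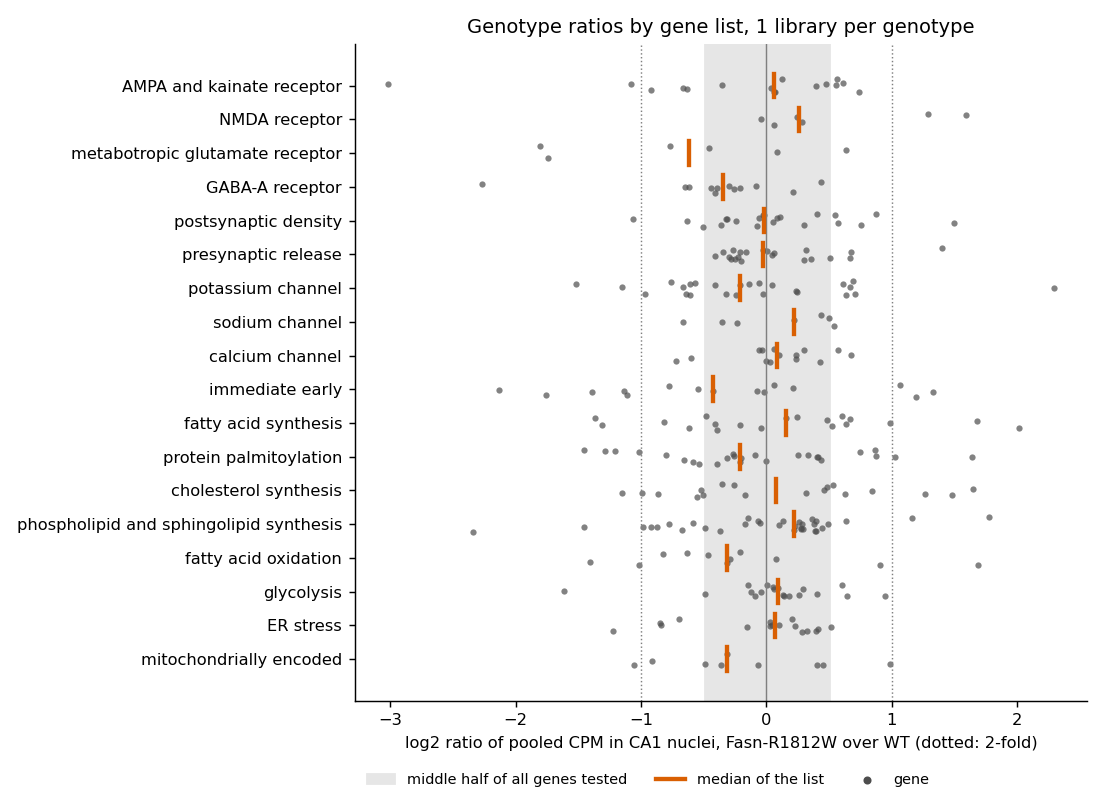
Log2 ratio of pooled CPM in CA1 nuclei, Fasn-R1812W over WT, for each gene of 18 lists (points), with the list's median as an orange bar and the range between the quartiles of all 10717 genes tested, -0.49 to 0.50, shaded. The median of the metabotropic glutamate receptor genes (-0.62) lies left of the shaded range and the other 17 medians lie inside it.

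Among general pyramidal neuron genes, 22 of 22 were read and 15 had a ratio above 0, with 1 gene 2-fold higher and 1 lower and a median of 0.16. Itpka, an inositol trisphosphate kinase of dendritic spines, had a median of 355 CPM (0 to 3159) among Fasn-R1812W and 147 CPM (0 to 1907) among WT nuclei. Its pooled log2 ratio was 1.14, against 0.03 in granule nuclei. Genes listed for other neurons were read too. Of 15 interneuron genes with counts, 7 passed the gene filter. Of these 7, 0 were 2-fold higher and 3 lower, with a median of -0.89. The list holds Cck, which CA1 pyramidal neurons also express, at 1610 and 1438 CPM. Sst, somatostatin, stood at 15.2 and 91.9 CPM, but 1 WT nucleus held 69.3% of its reads there. Among CA2 genes Map3k15 stood at 23.9 and 87.9 CPM, on in 11 of 73 and 15 of 60 nuclei, while Rgs14 at 79.6 and 85.2 CPM and Pcp4 at 117 and 123 CPM were near even. Subicular or entorhinal genes had a median of -0.64 over 7 genes, 1 of them 2-fold higher and 1 lower. Among them Lmo3 stood at 113 and 48.2 CPM and Tle4 at 16.5 and 39.0 CPM, on in 2 and 8 nuclei.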

How the data were processed

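Reads per gene and well of Smart-seq2 libraries, made well by well from whole transcripts with no molecular identifiers, were the starting point. The deposited values were counts, whole numbers with no normalization by the authors. Trimmomatic 0.36, STAR 2.5.3a and the build GRCm38.p5 are named per the submitters' processing notes. Which program, annotation and strand setting made the counts is not given in the sources used here, so overlapping genes, close copies and opposite-strand partners may share reads. Each table held 25567 genes, of which 25395 matched a symbol, and 384 wells, whereas 382 nuclei were stated. NeuN+ libraries totalled 72468235 reads in Fasn-R1812W and 71221156 in WT, and EdU+ libraries 96597804 and 36368990.

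The members and gene lists were chosen with earlier results of these data known. For each library the reads of all CA1 nuclei were added up per gene and scaled to 1000000 nuclear-encoded reads (CPM). RPKM used exon lengths of GENCODE release M21, which also gave positions. Log2 ratios had a prior of 1 CPM added. With 1 library per genotype no p-value was computed; genes at least 2-fold apart were counted, and lists are given by counts and medians. Simulated counts, drawn from WT levels with known folds set only in more abundant genes, served to check the calculation of the ratios alone. Genes named for genotype needed, in the higher library only, 20 CPM, on in 20% of nuclei and at most 20% of reads from any single nucleus. They also needed 1 direction in pooled, mean and thinned values, and the 12 furthest apart each way are named. List genes named are the 2 most abundant in WT and those 2-fold apart, at most 4 per list, with further ones named after their values were seen; some genes are not reported here. Alternatives changed the well filter, the on threshold, the number of rule genes, exclusions, doublet-like wells, weighting, thinning to 50000 reads, edgeR 4.0.16 TMM scaling, the gene filter and the prior. Blocks of wells by index number, GC content and nuclei on for Mpped1 and Pou3f1 only were added after seeing the data. Python 3.11.15, numpy 2.4.6 and pandas 2.3.3 were used.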

Additional observations from a re-analysis of the deposited data

Results flagged for a closer look

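Among EdU+ wells, where no CA1 neuron was looked for, 2 of 348 Fasn-R1812W wells and 1 of 167 WT wells met the CA1 rule. In all 3 at least 2 oligodendrocyte precursor genes and Pdgfra were on, and in none were Slc17a7, Wfs1 or Spink8 on.

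Some genotype ratios ran opposite ways in CA1 nuclei and in another class of the same libraries; these differences were not tested. The medians set side by side cover the genes that passed the gene filter in each class, which are not the same genes. Interneuron genes had a median log2 ratio of -0.89 over 7 genes in CA1 nuclei and 0.73 over 14 in GABAergic nuclei. Ventral CA1 genes had -0.43 over 8 genes in CA1 nuclei, which turned positive in 5 of 15 alternatives, 0.70 over 5 in granule nuclei and -1.60 over 5 in GABAergic nuclei. Fatty acid oxidation genes had -0.31 over 11 genes in CA1 nuclei and 0.34 over 13 in granule nuclei.

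Of the genes furthest apart, 5 that were higher in Fasn-R1812W CA1 nuclei were at least 2-fold lower in Fasn-R1812W GABAergic nuclei. The log2 ratios in CA1 and in GABAergic nuclei were 3.18 and -1.50 for Tnfrsf25, 2.41 and -2.15 for Ephb6, 2.23 and -2.48 for Pcgf1, 2.13 and -1.41 for Trub1 and 2.05 and -1.56 for Elk1. Lower in CA1 nuclei but at least 2-fold higher in granule nuclei were Ggcx, at -2.68 and 1.94, and Cd164, at -1.80 and 1.39. Smaller changes of sign are left out, such as Poglut1 at 2.16 in CA1 and -0.56 in GABAergic nuclei. Another is Jak2, at -1.90 in CA1 and 0.48 in granule nuclei. All these genes were chosen for their ratios in CA1 nuclei, and the share of sign changes over all genes tested is not given. GABAergic nuclei numbered only 36 and 35.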

How the results depend on the processing

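The share of CA1 nuclei was most sensitive to the rule. It came to 17.9% in Fasn-R1812W with genes counted as on from 20 reads and 100 CPM. With at least 3 rule genes on it was 11.3% in Fasn-R1812W and 7.64% in WT. By block of wells it reached 30.3% and 17.6% in Fasn-R1812W and 13.6% and 25.8% in WT. Counts of genes at least 2-fold apart differed with the rule and the gene filter. With 3 or more rule genes on, which left 34 and 24 nuclei, 2140 genes were higher and 1705 lower. A filter of 20 CPM and 20% of nuclei gave 783 higher and 749 lower, and no filter 2554 and 2539. TMM factors were 1.00002 in Fasn-R1812W and 0.999984 in WT, and the counts were the same.

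Nuclei with 3 or more rule genes on gave the most reversals: medians of -0.26 for NMDA receptor, 0.21 for ventral CA1, 0.11 for immediate early and 0.98 for mitochondrially encoded genes, and log2 ratios of 0.16 for Cd164, 2.22 for Reln, 1.67 for Grik3, 2.64 for Gria4, -0.77 for Grin3a, 1.83 for Grm3, 0.72 for Camk2d, 2.12 for Btg2, 2.32 for Zdhhc15 and 1.27 for mt-Nd5. Zdhhc15 had 1.504 with stricter exclusion of other neurons. Fatty acid oxidation had a median of 0.17 with the higher on threshold. Without the 5% of wells with the most genes, medians were 0.25 for ventral CA1 and 1.01 for mitochondrially encoded genes, and mt-Nd5 had 1.01. Without the top nucleus of each gene they were 0.16, 0.94 and 0.94. The ventral CA1 median was 0.26 with nuclei weighted alike and 0.18 after thinning, where the subicular or entorhinal median was 0.0099 and Stard5 had -0.22. Btg2 had 0.99 without nuclei on for Mpped1 and Pou3f1 only. The cause of these reversals was not tested. Of 24 lists, 7 kept the sign of their median in every alternative run for them: interneuron, pyramidal neuron, metabotropic glutamate receptor, GABA-A receptor, potassium channel, fatty acid synthesis, and phospholipid and sphingolipid synthesis genes. No paired analysis was possible because each genotype had 1 library.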
